A study of Homo sapiens with 6 samples.

Results

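The genes described here encode 9 proteins at the surface of colon cancer cells that serve as adhesion molecules, tumour antigens or markers of stem-like cells: L1CAM, NRCAM, ALCAM, CD44, EPCAM, CEACAM1, CEACAM5, CEACAM6 and PROM1. They were taken from the expression table by gene symbol, out of 22258 symbols. A row was found for 7 of them. CEACAM5 and CEACAM6 had no row and were not analysed here. Of the 7, the 5 genes L1CAM, ALCAM, CD44, EPCAM and CEACAM1 averaged 0.491 RPM or more (RPM corrects reads for sequencing depth; the limit is the level worth 10 reads in the sample with the smallest total), and were tested, among 16351 genes in all. NRCAM and PROM1 lay under that level. The samples came from SW480, an established human colon cancer cell line with truncated APC, and were sequenced as strand-specific total RNA. The comparison is between 3 samples with an ALDH1B1 knockdown (KD) and 3 control samples, which the labels give as wild type with no treatment; the replicates of each group are numbered 4, 5 and 6. ALDH1B1 encodes a mitochondrial aldehyde dehydrogenase. The labels say neither how the knockdown was made nor whether the samples are separate cultures, so the spread behind the p-values may be technical.

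Cell adhesion molecules of the immunoglobulin superfamily bind like molecules or other ligands on neighbouring cells and pass signals to the cytoskeleton. L1CAM and its relative NRCAM are known in colon cancer as targets of beta-catenin and TCF, and L1CAM is found at the invasive front of tumours. ALCAM (CD166), CD44, EPCAM and PROM1 (CD133) have been used in combination to sort colon cancer cells that start tumours in mice. CEACAM1, CEACAM5 (carcinoembryonic antigen) and CEACAM6 form a family of glycoproteins of the gut epithelium encoded in a cluster on chromosome 19.

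The depth behind the values was about 20360000 to 26160000 reads per KD sample and 21090000 to 28590000 per control sample. All genes with a row in the table together held 67.2% to 70.7% of it in KD samples and 65.1% to 71.1% in control samples, with the lowest share in control replicate 6. ALDH1B1 had 19.99, 20.4 and 23.2 RPM in KD replicates 4, 5 and 6, against 34.1, 39.6 and 36.7 RPM in the control replicates, so every KD sample lay below every control sample (log2 fold change -0.80, SE 0.0925, limma adjusted p = 4.50e-07). Keratins of simple epithelium were abundant, with KRT8 at 2743 ± 62.7 RPM in KD and 2702 ± 12.0 RPM in control samples (SD, n = 3 each), while the colon keratin KRT20 was near the floor at 0.0941 RPM in KD and 0.107 RPM in control samples. Of the 14 listed markers of colon epithelium 12 had a row and 9 were tested. Of those 9, 5 rose and 1 fell, while 21.9% rose and 18.1% fell over all genes tested. The median log2 fold change of the 9 was 0.77. Together the 12 summed to 5798 to 6123 RPM in KD and 5414 to 5680 RPM in control samples. E-cadherin (CDH1) rose by 1.98, villin (VIL1) by 1.90, CLDN4 by 0.92, the epithelial factor ELF3 by 0.87 and CLDN3 by 0.77, while the intestinal factor CDX2 changed by -0.76 (limma adjusted p of 3.18e-05 or less for each). Their part in the results for the surface genes was not tested. Markers of other cell types were scarce. The 5 of 8 leukocyte markers with a row summed to 1.96 to 2.66 RPM in KD and 2.31 to 3.53 RPM in control samples, the 3 of 7 fibroblast markers to 5.37 to 7.03 RPM in KD and 4.18 to 5.74 RPM in control samples, and the 1 of 5 endothelial markers to 0.497 to 0.688 RPM in KD and 0.425 to 0.617 RPM in control samples.

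Of the 5 surface genes tested, 4 rose in KD samples and none passed the test in the other direction. CEACAM1 rose 2.91-fold, ALCAM 2.11-fold, L1CAM 1.97-fold and EPCAM 1.87-fold, and in each of these every KD sample lay above every control sample. Groups did not overlap, in either direction, in 50.0% of all genes tested. CD44 averaged 88.5% of control and did not pass. Over all genes tested, 40.0% changed, 21.9% rose and 18.1% fell (3588 and 2960 genes), and the median log2 fold change was 0.01. The values come from whole cultures, in which more cells expressing a gene and more RNA per cell cannot be told apart.

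The sequences around the starts of L1CAM, ALCAM and CEACAM1, genes that rose together, are shown because they differ in composition and in the short motifs they hold. RefSeq's promoter windows, from 250 bases before to 50 bases after a start, were at hand for 8 of the 9 genes (EPCAM had no entry). The strand printed is that of the gene, and capitals mark either of 2 motifs on either strand. One is the E-box CAGGTG or CACCTG, which SNAI and ZEB repressors are known to bind. The other is the TCF core CTTTGA or TCAAAG.
L1CAM, chrX:153875895-153876194, GRCh38.p14, minus strand: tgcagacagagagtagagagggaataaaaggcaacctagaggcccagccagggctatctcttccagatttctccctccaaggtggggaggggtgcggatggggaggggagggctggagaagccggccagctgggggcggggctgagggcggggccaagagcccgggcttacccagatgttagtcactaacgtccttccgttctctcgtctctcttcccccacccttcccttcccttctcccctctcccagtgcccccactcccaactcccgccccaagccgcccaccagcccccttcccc
ALCAM, chr3:105366659-105366958, GRCh38.p14, plus strand: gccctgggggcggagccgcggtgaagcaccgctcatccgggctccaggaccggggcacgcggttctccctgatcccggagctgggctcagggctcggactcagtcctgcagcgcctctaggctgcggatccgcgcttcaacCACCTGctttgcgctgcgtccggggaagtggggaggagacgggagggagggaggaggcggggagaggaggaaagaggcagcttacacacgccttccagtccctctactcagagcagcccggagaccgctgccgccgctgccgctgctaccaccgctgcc
CEACAM1, chr19:42528432-42528731, GRCh38.p14, minus strand: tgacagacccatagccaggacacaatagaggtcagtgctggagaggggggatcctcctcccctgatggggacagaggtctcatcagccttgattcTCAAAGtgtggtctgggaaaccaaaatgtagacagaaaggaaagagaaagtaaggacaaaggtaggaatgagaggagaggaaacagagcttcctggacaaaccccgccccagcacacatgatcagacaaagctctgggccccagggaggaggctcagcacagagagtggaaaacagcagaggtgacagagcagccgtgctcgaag
The ALCAM window was rich in CpG, with 26 CpG dinucleotides and 70.0% G and C, and held 1 E-box and no TCF core. RefSeq gives L1CAM a pair of windows that overlap, and the first listed is shown; it had 10 CpG and 64.7% G and C, the other had 8 CpG and 61.7%, and neither motif was in either. The CEACAM1 window had 3 CpG and 53.7% G and C, with 1 TCF core and no E-box. Among 35116 windows of the same length, 20.6% held the E-box and 12.9% the TCF core. A match describes the letters only.

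L1CAM, an adhesion protein of neurons that is also made by invasive colon cancer cells (chromosome X, 153126969 to 153174678, minus strand, in the table's own coordinates as for all gene positions here, whose build is not settled), was among the more abundant members. It had 155 RPM in KD replicate 4, 168 in replicate 5 and 188 in replicate 6, against 88.1, 92.8 and 79.0 RPM in control replicates 4, 5 and 6. The groups did not overlap, as in 50.0% of all genes tested, and the lowest KD value stood well above the highest control value. The mean was 170.3 ± 16.3 RPM in KD and 86.6 ± 6.99 RPM in control samples (SD, n = 3 each), and the log2 fold change was 0.97 (SE 0.0828, 95% interval 0.80 to 1.15, limma adjusted p = 3.60e-09). These values rest on 1860 to 4909 reads per sample. The table places ARHGAP4 on the same strand with 1858 bases in common with L1CAM. ARHGAP4 averaged 92.6 ± 1.57 RPM in KD and 81.4 ± 9.56 RPM in control samples (SD, n = 3 each) and did not pass the test (log2 fold change 0.19, adjusted p = 0.0693). How shared reads were assigned is not given. In GENCODE 29, 7.79% of the 45-base windows of the longest coding L1CAM transcript also occur in another gene, all of them in U52112.1.

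NRCAM, the relative of L1CAM on chromosome 7 (107788068 to 108097162, minus strand), was close to the limit of detection. KD samples had 0.142, 0.196 and 0 RPM, which is about 3, 4 and 0 reads, against 0.175, 0.237 and 0.255 RPM or about 5, 5 and 6 reads in control samples. A count of 0 in KD replicate 6 allows a level of up to 0.115 RPM (3 reads, counting error only). With 7 reads in all in KD and 16 in control samples, it was left out by the filter, and without a filter it did not pass (limma adjusted p = 0.257).

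ALCAM, which binds itself and the lymphocyte receptor CD6 (chromosome 3, 105085753 to 105295745, plus strand), was expressed at a low level and rose to about double. It had 6.41, 6.34 and 6.23 RPM in KD samples against 2.83, 3.08 and 3.06 RPM in control samples. The spread within each group was small beside the distance between them. Means were 6.33 ± 0.0911 RPM in KD and 2.99 ± 0.137 RPM in control samples (SD, n = 3 each), with a log2 fold change of 1.08 (SE 0.147, 95% interval 0.78 to 1.39, limma adjusted p = 4.01e-06). It rests on 65 to 163 reads per sample, fewer than any other member that rose.

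CEACAM1, a homophilic adhesion receptor whose long form carries inhibitory tyrosine motifs (chromosome 19, 43011456 to 43065387, minus strand), had the largest rise of the 5. KD samples had 10.9, 11.9 and 14.98 RPM, against 4.72, 4.46 and 3.82 RPM in control samples. Even the lowest KD sample was more than 6 RPM above the highest control sample. Means were 12.6 ± 2.13 RPM in KD and 4.33 ± 0.462 RPM in control samples (SD, n = 3 each), and the log2 fold change was 1.53 (SE 0.139, 95% interval 1.25 to 1.82, limma adjusted p = 9.24e-09), on 90 to 392 reads per sample. Only 1.66% of all genes tested had a larger log2 fold change. CEACAM genes resemble each other, and how reads that match several were assigned is not given. By the same measure as for L1CAM, 5.01% of the windows of CEACAM1 also occur in another gene, most often CEACAM3 with 2.62%, while CEACAM6 shares 1.38% and CEACAM5 1.09%.

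Of 13 genes of the CEACAM family list, 4 had a row and 3 were tested, and all of those 3 rose (background 21.9%), with a median log2 fold change of 0.69 against 0.01 over all genes. Besides CEACAM1 these were CEACAM19, at 2.72 ± 0.359 RPM in KD and 1.73 ± 0.176 RPM in control samples, and CEACAM21, at 5.24 ± 0.168 RPM in KD and 3.39 ± 1.19 RPM in control samples (SD, n = 3 each). Their log2 fold changes were 0.65 and 0.69 (limma adjusted p = 0.0149 and 0.00653). The CEACAM19 call was lost without KD replicate 4 and under quantile normalization (adjusted p = 0.0817 and 0.0849), and the CEACAM21 call without a variance trend (adjusted p = 0.0761). The pseudogene CEACAM22P lay under the filter at 0.102 RPM in KD and 0.0466 RPM in control samples.

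EPCAM, an adhesion molecule of simple epithelia that is cleaved to release a signalling fragment (chromosome 2, 47572297 to 47614741, plus strand), was the most abundant member in KD samples. It had 204, 205 and 209.9 RPM there, against 116, 114 and 101 RPM in control replicates 4, 5 and 6. The KD samples were nearly identical to each other and far above all controls. Means were 206 ± 3.21 RPM in KD and 110.4 ± 7.91 RPM in control samples (SD, n = 3 each), and the log2 fold change was 0.90 (SE 0.0746, 95% interval 0.75 to 1.06, limma adjusted p = 2.32e-09), on 2387 to 5491 reads per sample. Of its 45-base windows, 3.095% also occur in another gene, AC093840.1, in GENCODE 29, and none of those of ALCAM or CD44 do.

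CD44, the main receptor for hyaluronan and a Wnt target in the crypt (chromosome 11, 35160417 to 35253950, plus strand), was the most abundant member in control samples. KD samples had 150.4, 154 and 164 RPM against 183.6, 183.96 and 162 RPM in control samples. The groups overlapped, because control replicate 6 lay below KD replicate 6. Means were 156 ± 6.92 RPM in KD and 176 ± 12.6 RPM in control samples (SD, n = 3 each), and the log2 fold change was -0.17 (SE 0.0757, 95% interval -0.33 to -0.02 before adjustment, limma adjusted p = 0.0691). The call depended on control replicate 6 and on the scaling. Without that sample the log2 fold change was -0.24 and CD44 fell (adjusted p = 0.00709), as it did after median-of-ratios scaling (-0.18, adjusted p = 0.00507) and upper-quartile scaling (-0.16, adjusted p = 0.0113). The table gives 1 value per gene, so standard and variant exon forms of CD44 were not separated.

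PROM1, a pentaspan protein of membrane protrusions (chromosome 4, 15964699 to 16086002, minus strand), was barely detected in this line. KD samples had 0.0475, 0.0491 and 0.153 RPM, or about 1, 1 and 4 reads, against 0.105, 0.0948 and 0.0850 RPM or about 3, 2 and 2 reads in control samples. The KD range spanned the control range, and at 6 and 7 reads in all no difference was detectable at this depth.

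**Figure D1:**
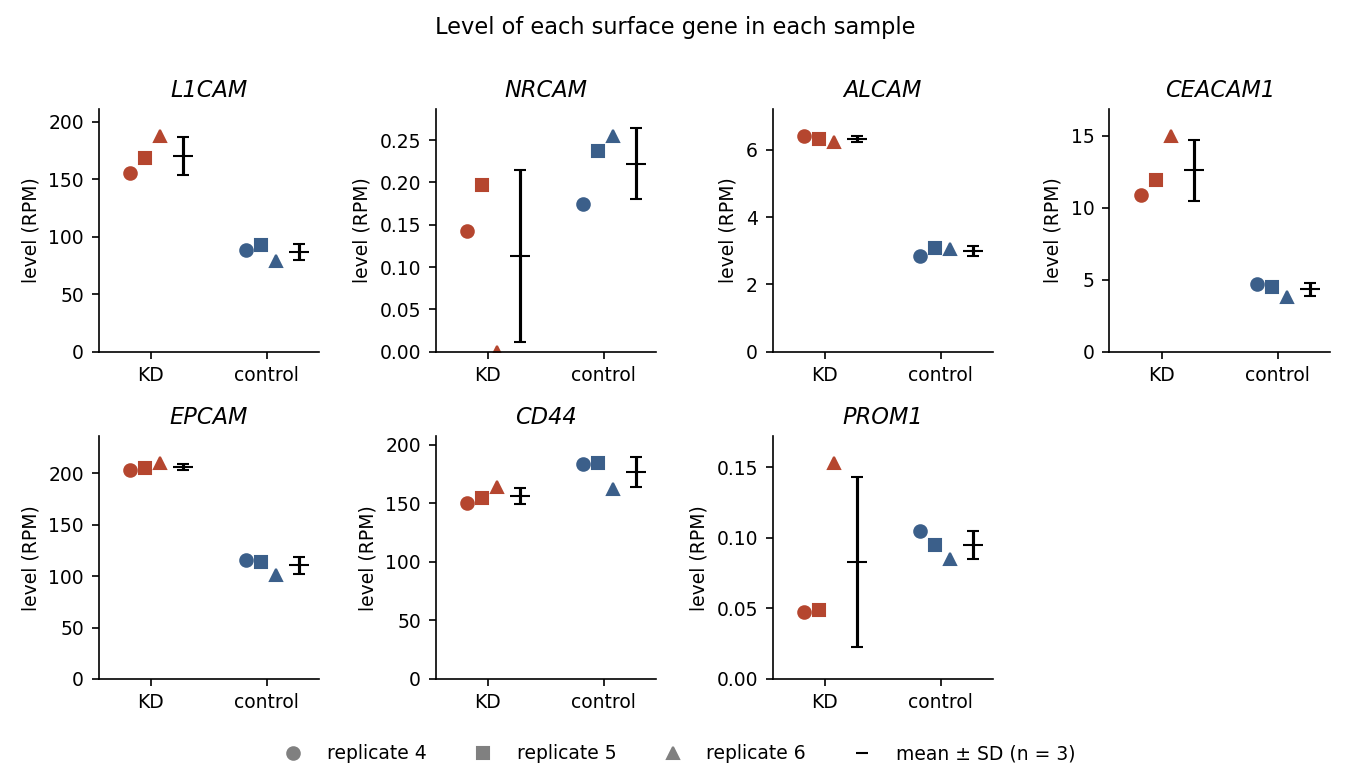
Level in RPM of the 7 surface genes with a row in each KD and control sample, with symbols for replicates 4, 5 and 6 and the mean ± SD of 3 samples beside them; each panel has its own axis from 0. The KD points of L1CAM, ALCAM, CEACAM1 and EPCAM lie above all control points, those of CD44 overlap the controls, and NRCAM and PROM1 stay below 0.3 RPM.

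**Figure D2:**
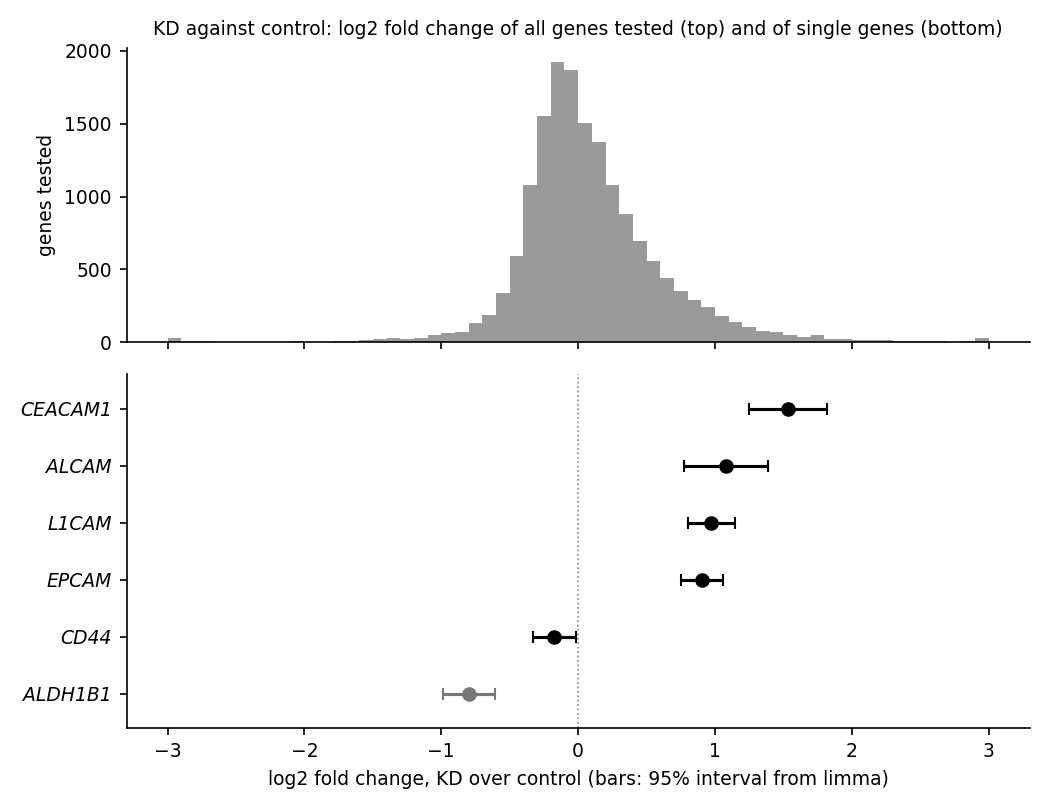
Log2 fold change of KD over control for all 16351 genes tested (top, genes per bin, values beyond 3 in either direction placed at 3) and for the 5 surface genes tested and ALDH1B1 (bottom, points with 95% intervals from limma). CEACAM1 lies at 1.53, ALCAM, L1CAM and EPCAM between 0.90 and 1.08, and CD44 at -0.17.

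Among the 3 KD samples, replicate 6 had the highest L1CAM, EPCAM, CEACAM1 and CD44. ALCAM values lay close together, at 6.41, 6.34 and 6.23 RPM on 135, 129 and 163 reads in KD replicates 4, 5 and 6. At such counts their order carries little weight. Measured against the control mean, CEACAM1 was higher by 1.33, 1.47 and 1.80 on the log2 scale in KD replicates 4, 5 and 6, and L1CAM by 0.84, 0.96 and 1.12, whereas EPCAM varied only between 0.89 and 0.93 and ALCAM between 1.06 and 1.10. Among the controls, replicate 6 had the lowest L1CAM, EPCAM, CEACAM1 and CD44.

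Scaled to the length of the annotated exons in GENCODE 29, EPCAM had the highest level of the 7 in both groups, 102.6 ± 1.60 RPM per kb in KD and 54.9 ± 3.94 RPM per kb in control samples (SD, n = 3 each). The order of the next pair differed between groups. L1CAM stood at 30.2, 32.7 and 36.5 RPM per kb in KD samples and CD44 at 24.7, 25.3 and 26.9, without overlap. In control samples L1CAM had 17.1, 18.0 and 15.4 RPM per kb and CD44 30.1, 30.2 and 26.5, also without overlap. CEACAM1 followed with 3.40 ± 0.575 RPM per kb in KD and 1.17 ± 0.125 in control samples, then ALCAM with 1.33 ± 0.0192 in KD and 0.631 ± 0.0290 in control samples. NRCAM and PROM1 were last, at no more than 0.0367 RPM per kb in any sample, and were not told apart from each other. The gene models behind the table may differ from GENCODE's, so these levels are approximate.

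Ratios between members within a sample do not change when the whole sample is scaled by 1 factor, although quantile normalization alters them. The ratio of CD44 to EPCAM was 0.738, 0.752 and 0.781 in KD samples against 1.58, 1.62 and 1.60 in control samples, so CD44 reads outnumbered EPCAM reads in every control sample and in no KD sample. L1CAM to CD44 was 1.03, 1.09 and 1.15 in KD samples against 0.480, 0.504 and 0.488 in control samples. L1CAM and EPCAM, by contrast, kept nearly the same ratio, 0.825 ± 0.0665 in KD and 0.784 ± 0.0285 in control samples (SD, n = 3 each), and the groups overlapped. EPCAM to CEACAM1 was lower in KD samples, 16.6 ± 2.41 against 25.5 ± 0.969 in control samples (SD, n = 3 each). Of the 10 pairs among the 5 genes, 7 had ratios that did not overlap between groups, and each of those had an exact two-sided permutation p = 0.1, the smallest that 3 against 3 samples allow (0.143 adjusted over the 10 pairs). For single genes, groups did not overlap in 50.0% of all genes tested, but no such share was taken over ratios. The 10 pairs are made from the same 5 genes and are not independent. The mean log2 change of a ratio is the numerator's log2 fold change minus the denominator's. The ratios thus restate the fold changes given above and are not a further result.

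**Figure D3:**
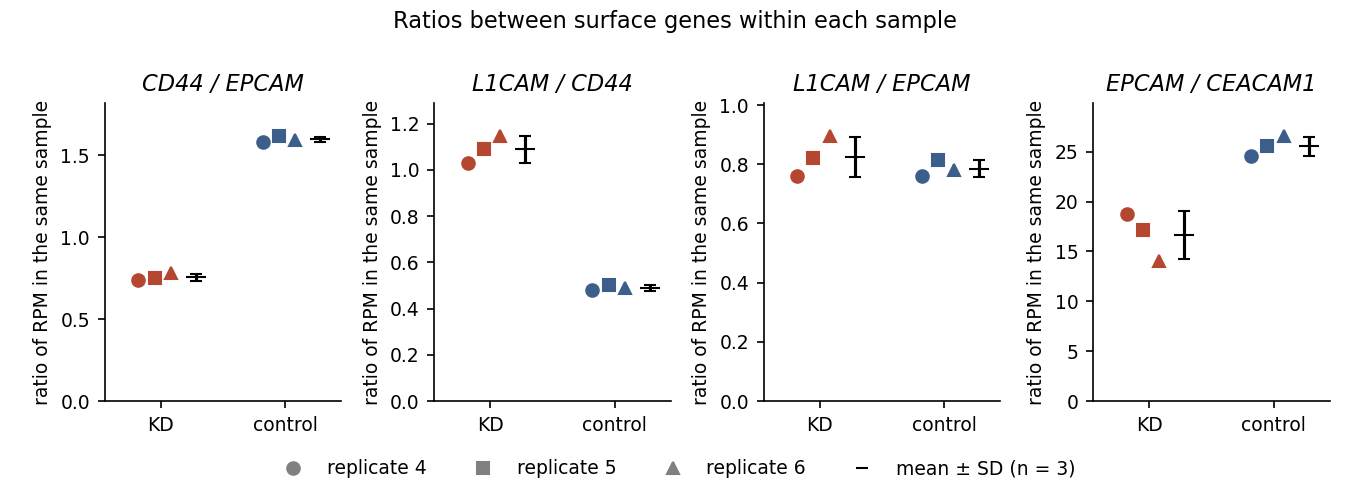
Ratio of the RPM of one surface gene to another in the same sample, for 4 pairs, in KD and control samples, with symbols for replicates and the mean ± SD of 3 samples. CD44 over EPCAM lies between 0.738 and 0.781 in KD and between 1.58 and 1.62 in control samples, while L1CAM over EPCAM overlaps between the groups.

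Most tested genes around EPCAM rose too. Among 26 tested genes that start within 2.5 Mb of EPCAM on chromosome 2, 16 rose and 1 fell (61.5% and 3.85%). Over all genes tested, 21.9% rose and 18.1% fell. The median log2 fold change of the 26 was 0.45. EPCAM itself lay 0.45 above that median, and 5 of the 26 had a larger rise. Around the other members that rose, medians were nearer 0. The median was 0.04 for the 65 genes around L1CAM, of which 14 rose and 11 fell (21.5% and 16.9%). For the 109 genes around CEACAM1 it was 0.03, and 22 rose and 13 fell (20.2% and 11.9%). ALCAM had only 3 tested neighbours, with a median of -0.04 and none that rose. Around CD44 the median of 29 genes was -0.13, near CD44's own -0.17, with 4 that rose and 11 that fell (13.8% and 37.9%). The part of a regional difference in the EPCAM value was not tested.

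**Figure D4:**
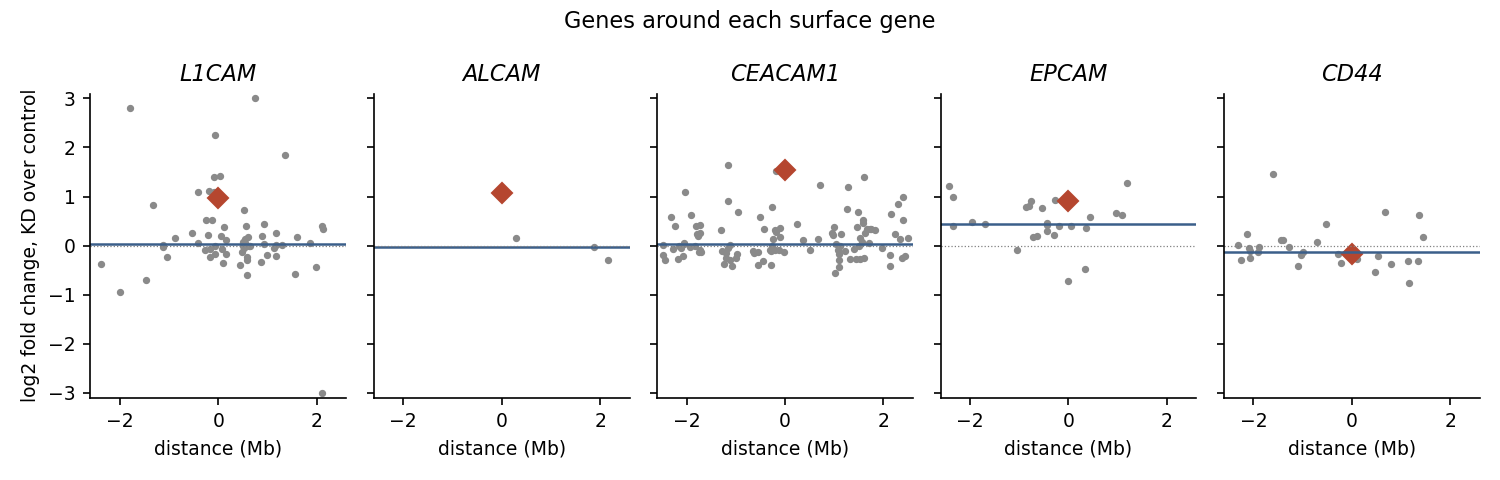
Log2 fold change of KD over control for tested genes against the distance of their start from that of the surface gene, in Mb, within 2.5 Mb; the diamond is the surface gene, dots are its neighbours, the blue line is their median, and values beyond 3 are drawn at 3. Around EPCAM the median is 0.45, while around L1CAM, ALCAM and CEACAM1 it is within 0.04 of 0 and the surface gene stands above most of its neighbours.

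A list of the L1 and immunoglobulin adhesion group holds L1CAM, NRCAM and ALCAM beside other genes. Of its 10 genes 6 were tested, 4 rose and none fell (background 21.9% and 18.1%). The median log2 fold change was 0.72 against 0.01 over all genes. L1CAM and ALCAM, described above, are among the 4 that rose and enter that median. BCAM, a laminin receptor, rose by 0.84 to 87.8 ± 5.44 RPM in KD against 49.1 ± 3.45 RPM in control samples (SD, n = 3 each; limma adjusted p = 2.70e-08). The neural adhesion molecule NCAM1 rose by 0.59, to 29.7 ± 2.74 RPM in KD against 19.9 ± 3.94 RPM in control samples (adjusted p = 0.000267). The melanoma adhesion molecule MCAM had 67.9 ± 2.32 RPM in KD and 61.4 ± 4.44 RPM in control samples and did not pass (adjusted p = 0.146, though it did under 3 other scalings, with adjusted p of 0.00505 to 0.0401), nor did neurofascin, NFASC, at 0.959 RPM in KD and 0.676 RPM in control samples (adjusted p = 0.2505). The contactin CNTN1 was under the filter, with about 1, 1 and 4 reads in KD samples against 25, 7 and 17 in control samples. Without the filter it fell (adjusted p = 0.00635), which makes 4 that rose and 1 that fell among 8 tested, with L1CAM, NRCAM and ALCAM included.

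Genes for L1 cleavage, its partners and the genes it is known to induce in colon cancer cells did not move as one. Of 15 tested from that list of 18, 2 rose and 5 fell, and the median log2 fold change was -0.14. Those 7 of 15 stand beside a background of 40.0% changed. The count of changed genes was 11 without control replicate 6 or after median-of-ratios scaling, and 4 without KD replicate 5, control replicate 4 or control replicate 5. BACE1, a protease that cleaves L1, rose by 0.66 and ankyrin ANK3, which anchors L1 to spectrin, by 0.78. The L1 co-receptor NRP1 changed by -0.75, to 20.6 ± 0.658 RPM in KD against 34.8 ± 3.01 RPM in control samples (SD, n = 3 each; limma adjusted p = 7.20e-07). The L1-shedding protease ADAM10 changed by -0.25, a call lost under 5 alternatives, and the membrane linker ezrin, EZR, by -0.37. ITGB1, on the same list, changed by -0.21 (adjusted p = 0.0355), a call lost under 8 alternatives. Of the known L1-induced genes, IGFBP2 changed by -0.22 (adjusted p = 0.0289), a call lost under 6 alternatives. Clusterin, CLU, had 135.5 ± 4.07 RPM in KD and 149.5 ± 16.5 RPM in control samples and did not pass (adjusted p = 0.188), but fell without control replicate 6 (adjusted p = 0.00760).

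Of the genes listed as partners of CD44, the largest changes were in enzymes that make or break down its ligand hyaluronan. HAS2, a hyaluronan synthase, fell to 5.42 ± 0.327 RPM in KD against 12.3 ± 1.10 RPM in control samples. Its log2 fold change was -1.18 (limma adjusted p = 7.97e-08). HAS3, the other synthase tested, did not pass, with 11.6 RPM in KD and 10.1 RPM in control samples (adjusted p = 0.169). CEMIP, listed under its older symbol KIAA1199 and needed for hyaluronan breakdown in skin fibroblasts, fell to 38.4 ± 4.34 RPM in KD against 84.0 ± 11.6 RPM in control samples (-1.13, adjusted p = 5.24e-09). The hyaluronidases rose, HYAL1 by 1.46, HYAL3 by 1.002 and HYAL2 by 0.35, but they sit together on chromosome 3. There, 72 of the 115 tested genes within 2.5 Mb of HYAL1 rose and 3 fell (background 21.9% and 18.1%), with a median of 0.36. The part of that region in the rise of the hyaluronidases was not tested. The linkers that tie CD44 to actin were slightly lower, with EZR, moesin (MSN) and radixin (RDX) changing by -0.37, -0.35 and -0.28. ESRP1, an epithelial splicing factor that favours CD44 variant exons, rose by 0.75 to 53.7 ± 4.82 RPM in KD against 32.3 ± 7.05 RPM in control samples (SD, n = 3 each; adjusted p = 2.12e-05). ESRP2 did not pass, with 32.5 RPM in KD and 31.8 RPM in control samples. Nor did SRSF1, at 266.5 ± 14.2 RPM in KD and 283 ± 12.2 RPM in control samples (adjusted p = 0.367). HNRNPM and KHDRBS1, listed with the splicing partners, changed by -0.22 and -0.255 (limma adjusted p = 0.0242 and 0.0116). Those calls were lost under 5 and 3 alternatives. In all, 4 of the 21 tested genes of the CD44 list rose and 10 fell (background 21.9% and 18.1%), with a median of -0.17. CD44 itself is among the 21 and did not pass.

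The list of EPCAM partners includes EPCAM itself. Of its 18 tested genes, 10 rose, EPCAM among them, and 4 fell (background 21.9% and 18.1%), with a median of 0.29. Only 2 fell without KD replicate 5, control replicate 4 or control replicate 5. The claudins CLDN4, CLDN3, CLDN1 and CLDN7, the last of which binds EPCAM directly, rose by 0.92, 0.77, 0.45 and 0.47, and the tetraspanin CD82 by 0.68. The tetraspanin CD9 did not pass (limma adjusted p = 0.895). It had 318 ± 6.16 RPM in KD and 322 ± 23.2 RPM in control samples (SD, n = 3 each). SPINT2 did not pass either, at 228 ± 10.5 RPM in KD and 234 ± 15.8 RPM in control samples (adjusted p = 0.745). Of the enzymes that cut EPCAM, presenilin PSEN2 changed by -0.56 and ADAM17 did not pass (0.16, adjusted p = 0.1496). LEF1, a nuclear partner of the released fragment, fell to 19.9 ± 1.45 RPM in KD against 33.2 ± 0.540 RPM in control samples (-0.74, adjusted p = 7.73e-07).

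Microvillus and prominin-related genes gave 5 that rose and 2 that fell among 7 tested (background 21.9% and 18.1%), with a median of 0.64. The 2 that fell were CDHR5 and EZR. EZR, the most abundant of the list, changed by -0.37 (limma adjusted p = 0.000338) and is also on the L1 processing and CD44 lists. Villin, VIL1, which bundles actin in the brush border, rose by 1.90. It had 21.7 ± 1.25 RPM in KD against 5.82 ± 0.587 RPM in control samples (limma adjusted p = 9.54e-12). HDAC6, a deacetylase known to bind CD133, rose by 0.64. TTYH1 also rose by 0.64 (adjusted p = 0.00920), a call lost under 3 alternatives. The mucins MUC13 and MUC1 rose by 1.17 and 0.88 but stayed at or under 2.81 RPM on average, and the protocadherin CDHR5 changed by -1.01 at 0.643 RPM in KD and 1.28 RPM in control samples, a call lost without KD replicate 6, control replicate 4 or control replicate 6 (adjusted p = 0.146, 0.0503 and 0.147), and without a filter or a variance trend (0.0588 and 0.0741).

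Other markers of colon stem cells and tumour-initiating cells went both ways, with 4 that rose and 6 that fell among 16 tested (background 21.9% and 18.1%) and a median of -0.17. The share that rose was near the background, and only 2 rose without KD replicate 5, KD replicate 6 or control replicate 6, where the calls of LRIG1 and CD47 were lost. SOX2, a pluripotency factor, had the largest change in this list, at 1.09 ± 0.374 RPM in KD and 8.52 ± 1.73 RPM in control samples (SD, n = 3 each; -3.02, limma adjusted p = 5.20e-10). The tuft cell kinase DCLK1 changed by -0.66, the phosphatase PTPRK by -0.51 and the polycomb factor BMI1 by -0.41. CXCR4, a chemokine receptor, rose by 0.86, and RNF43, a feedback inhibitor of Wnt signalling, by 0.47. ITGA6, the most abundant of the list, changed by -0.31, while SOX9, the crypt factor, did not pass at 163 ± 12.2 RPM in KD and 187 ± 17.8 RPM in control samples (adjusted p = 0.0511), though it did under 8 alternatives. LGR5, the receptor that marks crypt base stem cells, had no read in any KD sample against about 7, 4 and 4 reads in control samples, close to the floor of 3 reads. The filter left it out, and without a filter it did not pass (adjusted p = 0.246).

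**Figure D5:**
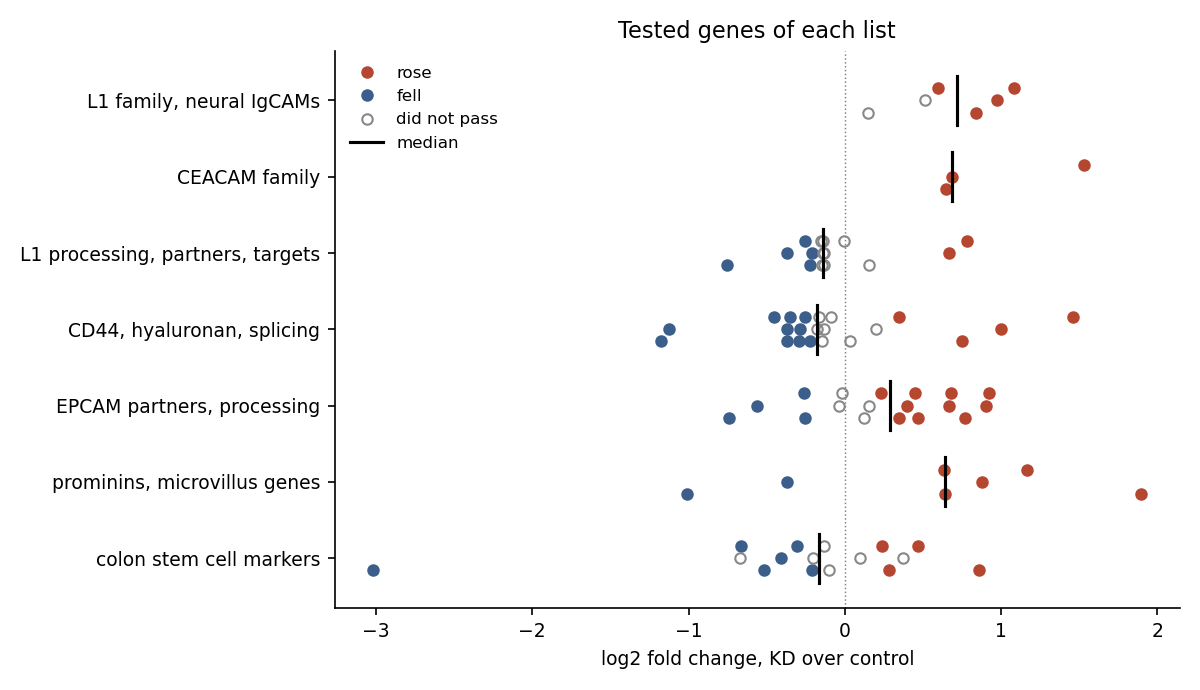
Log2 fold change of KD over control for each tested gene of the 7 lists, with filled points for genes that rose (red) or fell (blue), open points for genes that did not pass the test, and a black line at the median. The medians of the L1 family, CEACAM family and prominin lists lie at 0.64 to 0.72, that of the EPCAM list at 0.29, and those of the other 3 lists between -0.17 and -0.14.

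The genes whose values over the 6 samples were most like those of each member were sought among 12739 genes averaging 2.46 RPM or more, by the root mean square difference of log2 values centred on each gene's mean. For L1CAM these were CRYGN, a gamma crystallin (0.0362), and NEIL1, a DNA glycosylase (0.0395). For ALCAM they were MAOB, a monoamine oxidase (0.0338), and the non-coding BZRAP1-AS1 (0.0558), and for CEACAM1 the MHC class II chaperone CD74 (0.0562) and SMARCD3, a subunit of SWI/SNF complexes (0.0781). For EPCAM they were IAH1 (0.0209) and the EGF receptor ligand TGFA (0.0317), both on chromosome 2 like EPCAM. CD44, with its small difference, was matched most closely by PCM1 (0.00851) and PPHLN1 (0.00887).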

How the data were processed

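RNA of 6 SW480 samples was compared, 3 with an ALDH1B1 knockdown and 3 controls, grouped by their titles. The authors deposited 1 table of log2 values. From the values, these are depth-corrected reads (RPM) with 1e-04 added, as log2. Bowtie, Partek and hg38 are named in the submitters' processing notes, without versions; no source used here gives the counting method, gene models or filters. The table's positions are not those of GRCh38: for 5 of 7 members they do not overlap the GENCODE 29 gene. The table has 24549 lines and 22258 symbols; 1192 symbols placed at several loci had identical values at each and were used once.

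The level of 1 read was found as the common step of low values, of which 76.4% to 78.7% lay within 0.02 reads of a whole number, so no count model was run. Genes averaging 0.491 RPM or more were tested with limma 3.58.1 in R 4.3.3, without covariates. Settings were lmFit and eBayes with a trend, two-sided, with Benjamini-Hochberg over all 16351 genes and an adjusted p threshold of 0.05. "Rose" and "fell" are used for genes past that threshold. The test was checked on simulated data with independent errors and few changed genes. That check cannot speak to scaling or to effects shared within a sample. Fold changes are ratios of mean RPM. Single values were also compared with exact permutation tests. Lists are described by counts, without a test, and some genes, such as EZR, are on several lists. Members, lists and tests were chosen with earlier results of these data known. The rule named the members, ALDH1B1, tested genes of the 2 adhesion families, and of each other list up to 5 changed genes with the smallest adjusted p and 2 of highest level, with 2 most similar genes per member. ARHGAP4, KRT20, CDH1, ELF3, CDX2, LRIG1, CD47, HYAL2, HAS3, RDX and ESRP2 were named after their values were seen. So were IGFBP2, ADAM17, CD82, PSEN2, CLDN1, CLDN7, BMI1, CEACAM22P, CNTN1, LGR5, HNRNPM and KHDRBS1. After group means were removed, same-numbered samples correlated across genes at -0.04, -0.05 and -0.12, and were not treated as pairs. Python 3.11.15 with matplotlib 3.10.9 drew the figures.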

Additional observations from a re-analysis of the deposited data

How the results depend on the processing

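L1CAM, ALCAM, EPCAM and CEACAM1 rose under all 16 alternatives (other scalings, pseudocounts of 0.5 and 1, filters, variance priors, the replicate block, and each sample left out), all planned. Their log2 fold changes ranged over 0.90 to 1.04, 0.88 to 1.10, 0.84 to 0.97 and 1.34 to 1.63, with the highest adjusted p at 0.00269. ALDH1B1 lay between -0.86 and -0.74. CD44 was negative throughout, from -0.24 to -0.08, and fell in 3 alternatives, so the number of members that fell was 1 after median-of-ratios or upper-quartile scaling and 0 to 1 with a sample left out. Over all genes, 4939 to 7788 changed. With the replicate block 3277 rose and 2322 fell, the members kept their calls, and the list of L1 processing, partners and targets had 4 changed genes, against 7 without it. That list also had 11 after median-of-ratios scaling, 4 without a variance trend and 4 to 11 with a sample left out, and the prominin list had 4 with the filter set 5 times higher, which tests fewer genes. Apart from those settings, each list's count of changed genes stayed within 1.5 times, but without a variance trend only 2 genes of the stem cell list rose and 2 of the EPCAM list fell. CNTN1 fell without the filter. Within 1 Mb, the median of neighbours was 0.16 for ALCAM (1 gene), -0.19 for CD44, 0.41 for EPCAM and 0.12 for CEACAM1, and within 5 Mb it was 0.48 for EPCAM. Without a filter, NRCAM and PROM1 did not pass (adjusted p = 0.257 and 0.805). Except for the filter, the cause of these differences was not tested. Depth limits NRCAM, PROM1, CNTN1 and LGR5, where a few reads decide the value, and ALCAM rests on at most 163 reads a sample.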
